A study of Mus musculus with 40 samples.

Results

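The comparison of day 18 with day 0 in a time course of CtbpDKO embryonic stem cells asks which RNA levels still differ once Ctbp2 has been raised and has returned to its starting level. It rests on 4 libraries, the 2 labelled day 18 and the 2 labelled day 0, chosen by their column names in the time course table. They are 4 of the 10 libraries of that table, of the 34 RNA libraries of the series and of its 40 samples.

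All cells were E14tg2a, a mouse embryonic stem cell line, which per the labels' protocols grew in GMEM medium with serum (FBS) and LIF, the cytokine that keeps such cells undifferentiated. Every library of the time course, day 0 included, has the genotype CtbpDKO, taken here as the double knockout of Ctbp1 and Ctbp2, and its title carries the word Dox. The labels do not say what Dox stands for, when it was given or withdrawn, whether the line is 1 clone, or whether the replicates were separate cultures, so p-values measure only the spread between these libraries. The time course has 2 libraries each at days 0, 3, 9, 12 and 18, and a separate genotype table with 2 libraries each of WT and CtbpDKO E14tg2a cells was used for reference.

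CtBP proteins are corepressors that bind DNA-binding factors and bring histone-modifying enzymes to their target genes. Cultures of mouse embryonic stem cells hold a small, changing share of cells that transiently express genes of the 2-cell embryo, such as Zscan4 and Dux, and a share that can turn towards primitive endoderm. Primitive endoderm is the layer that lines the blastocyst cavity and forms the yolk sac endoderm. Its genes include the transcription factors Gata6 and Gata4, the endocytic receptor system of Cubn, Amn and Dab2, and the laminin and collagen IV chains of the basement membrane it lays down.

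At day 18 the levels of 106 of 20612 tested genes (0.514%) differed from day 0 under an adjusted p of 0.05 in edgeR's quasi-likelihood test. Of these called genes, 74 were higher (0.359%) and 32 lower (0.155%), and 33 of the higher and 13 of the lower differed at least 2-fold. Genes of primitive endoderm stood among the higher ones, led by Cubn and Dab2. The 2-cell genes (26 tested), the DNA methylation genes (10 tested) and the core pluripotency genes (13 tested) gave 0 calls. For lists of this size 0 is near the share of 0.514% over all tested genes. The median log2 fold change over all tested genes was -0.01, and the median of its size was 0.21. For comparison, day 9 against day 0, which uses the same day 0 libraries, called 1512 genes (7.34%). DESeq2, a second count model, called 268 genes at day 18 (1.3%), and an unadjusted p under 0.05 was reached by 2519 (12.2%).

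Single libraries weighed on this count. It came to 27 without day 0 replicate 1, 65 without day 0 replicate 2, 45 without day 18 replicate 1 and 233 without day 18 replicate 2, and to 40 when only the 4 libraries entered the fit. Totals ran from 18097104 to 30169626 counts in the day 0 and day 18 libraries and from 16674526 over the table, and no library repeated another.

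**Figure D1:**
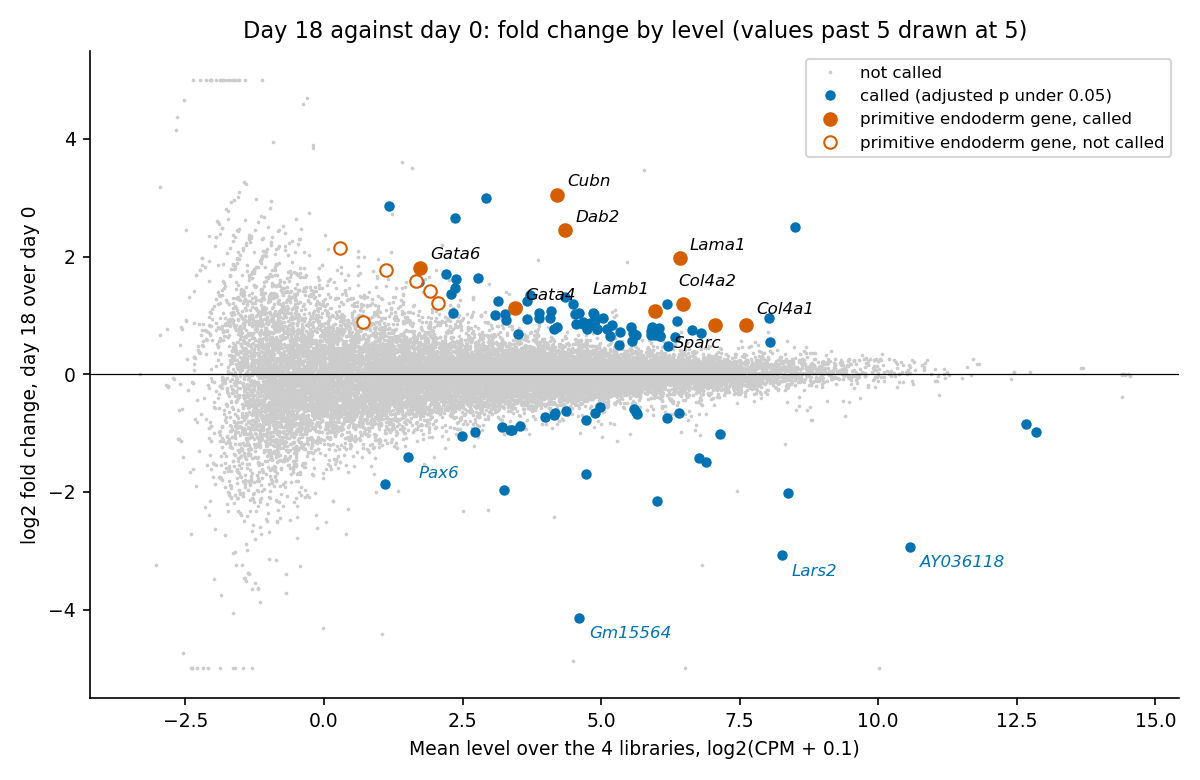
Log2 fold change of day 18 over day 0 (y axis) against the mean level of the 4 libraries on a log2 scale (x axis), 1 point per tested gene. Called genes are blue, and the 9 called primitive endoderm genes are orange and lie above 0 across the range of levels.

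Ctbp2 itself was back near its starting level. Its RNA stood at 58.9 and 59.3 CPM, counts relative to the scaled library size, at day 0, 544 and 573 at day 3, 310 and 296 at day 9, 49.4 and 44.7 at day 12, and 52.4 and 54.7 at day 18. The day 18 libraries lay just below both day 0 libraries, at 90.6% of day 0 with a 95% interval of 77.5% to 106%, and the difference did not pass (log2 fold change -0.14, SE 0.10, adjusted p = 0.63, edgeR). Ctbp1 had 1 and 2 counts at day 0, 3 and 4 at day 18 and 0 in the other 6 libraries, too few to be tested. In the genotype table, CtbpDKO libraries held 43.6 and 43.8 CPM of Ctbp2 against 211 and 215 in WT, so reads over this gene remain in the knockout and do not show which part of the transcript they cover.

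**Figure D2:**
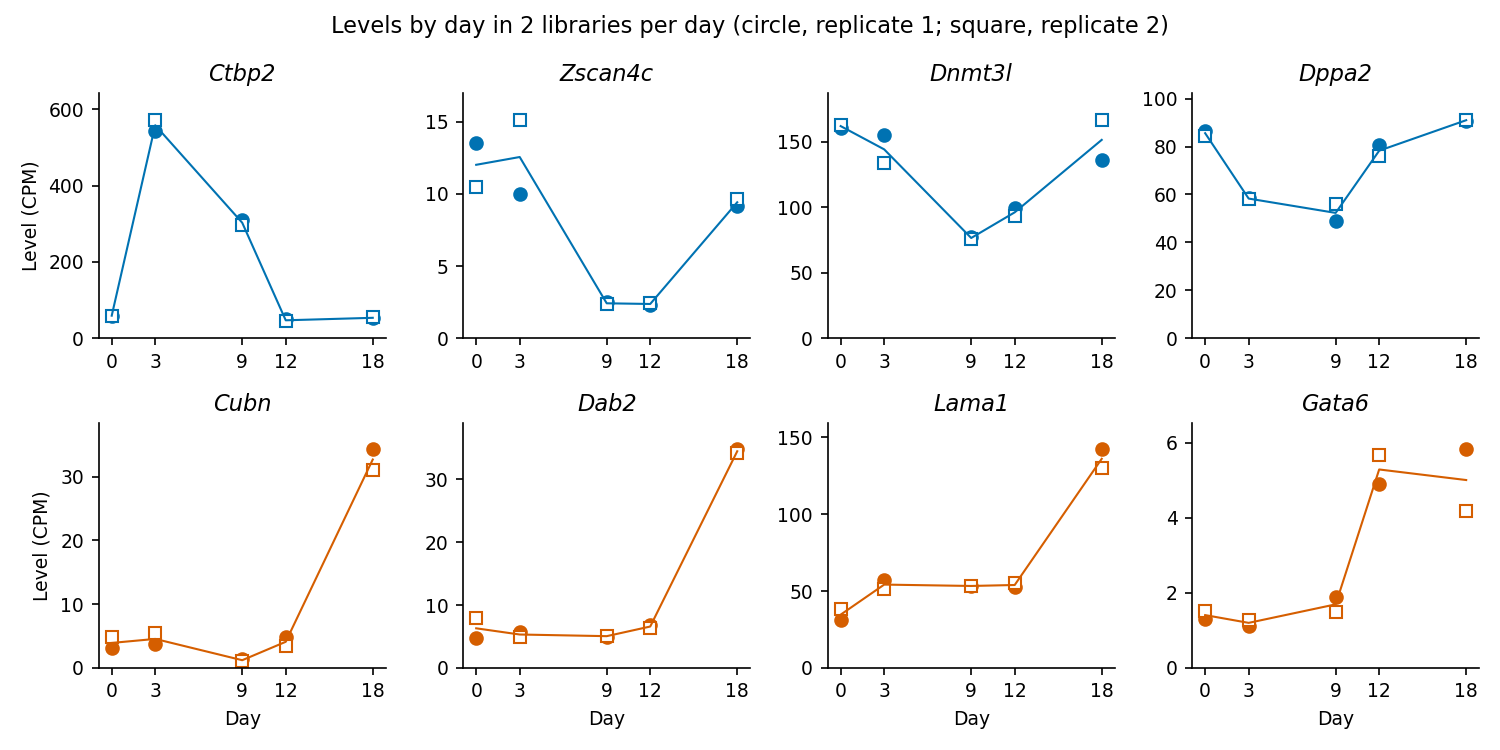
CPM (y axis, from 0) by day (x axis) for 8 genes, with a point for each of the 2 libraries and a line through their means. Ctbp2, Zscan4c, Dnmt3l and Dppa2 lie near their day 0 levels at day 18, whereas Cubn, Dab2, Lama1 and Gata6 lie above all their day 0 points.

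Primitive endoderm genes were the list with the most calls. Of 18 listed genes 15 were tested and 9 were higher at day 18, against a background of 0.359%, and 0 were lower. All 15 had a positive log2 fold change, where 48.8% of all tested genes did. An unadjusted p under 0.05 was reached by 14, where 12.2% of all tested genes reached it in either direction. The list's median was 1.41, where the medians of the other 24 lists ran from -0.46 to 0.51. In bulk RNA, a larger share of such cells and more RNA per cell cannot be told apart.

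The promoters of the 2 members with the largest fold changes are shown because their RNA moved together at day 18. Each line gives the 250 bases before a transcription start in RefSeq's table for GRCm38.p6, the build called mm10, with GATAA or its reverse complement TTATC in capitals, the letters at the core of the sites that Gata4 and Gata6 bind.
Cubn: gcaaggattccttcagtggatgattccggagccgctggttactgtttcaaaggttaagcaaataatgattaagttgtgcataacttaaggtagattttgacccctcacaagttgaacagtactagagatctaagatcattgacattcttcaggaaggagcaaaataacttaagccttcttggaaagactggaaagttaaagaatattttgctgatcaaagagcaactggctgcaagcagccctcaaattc
Dab2: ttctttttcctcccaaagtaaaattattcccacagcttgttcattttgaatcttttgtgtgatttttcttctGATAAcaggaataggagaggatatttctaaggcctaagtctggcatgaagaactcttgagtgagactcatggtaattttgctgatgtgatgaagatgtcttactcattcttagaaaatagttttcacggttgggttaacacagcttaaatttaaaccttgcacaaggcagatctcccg
The Cubn window is chr2:13491877-13492126 on the minus strand and holds no match. The Dab2 window, at the first of its 2 listed starts, is chr15:6299539-6299788 on the plus strand and holds 1 match. The window at its other start, not shown, holds none. Of the 32851 windows of this length that were kept, 22.6% hold the motif on either strand. Among the 14 kept windows of 10 tested list members it was 3, or 21.4%. These matches describe letters in a window and not bound sites. No window was kept for Lama1, Gata4, Gata6, Sox7 and Sox17, so these genes are outside the count.

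Among the endocytic receptor genes, Cubn encodes cubilin, which takes up proteins and vitamin carriers at the surface of visceral endoderm. Its level was 3.04 and 4.78 CPM at day 0 and 34.3 and 31.1 CPM at day 18. Both day 18 libraries stood far above both day 0 libraries, and the log2 fold change was 3.05 (SE 0.25, adjusted p = 7.18e-05, edgeR). At day 9 it had been below day 0, at 1.39 and 1.00 CPM, and at day 12 it was 4.79 and 3.39 CPM, so the high level was seen at day 18 only. Dab2, the adaptor that links such receptors to clathrin, went from 4.68 and 7.91 CPM to 34.8 and 34.2 CPM (log2 fold change 2.45, SE 0.20, adjusted p = 7.18e-05, edgeR). Its levels at days 3, 9 and 12 lay between 4.89 and 6.84 CPM, inside the range of the 2 day 0 libraries. Amn, which encodes the membrane anchor of cubilin, had 1.99 and 2.86 CPM at day 0 and 5.89 and 5.42 CPM at day 18 and did not pass (log2 fold change 1.21, adjusted p = 0.13, edgeR).

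The basement membrane genes were the most abundant members of the list. Lama1, a laminin alpha chain, had 31.1 and 38.2 CPM at day 0 and 142 and 130 CPM at day 18 (log2 fold change 1.97, SE 0.12, adjusted p = 3.09e-06, edgeR), the smallest adjusted p of the comparison. It was already above both day 0 libraries from day 3 on, between 51.1 and 57.3 CPM through day 12, and well below both day 18 libraries. Lamb1, a beta chain, had 36.0 and 44.5 CPM at day 0 and 93.8 and 77.2 CPM at day 18 (log2 fold change 1.08, adjusted p = 0.002, edgeR).

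The collagen IV chains had levels close to each other in the 2 day 18 libraries. Col4a1 went from 123 and 159 CPM to 254 and 252 CPM (log2 fold change 0.84, SE 0.12, adjusted p = 0.0051, edgeR). Col4a2 went from 46.9 and 61.1 CPM to 123 in each library (log2 fold change 1.19, adjusted p = 0.002, edgeR). These neighbours on chromosome 8 are read from opposite strands from nearly the same place, and whether reads were counted by strand is not given in the sources used here. Sparc, a matrix protein abundant in parietal endoderm, went from 93.3 and 98.0 CPM to 173 and 169 CPM (log2 fold change 0.84, adjusted p = 0.002, edgeR). In the 3 genes the 2 days did not overlap, which held for all 74 higher and all 32 lower called genes.

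Among the transcription factors, Gata6 had 1.29 and 1.52 CPM at day 0 and 5.83 and 4.19 CPM at day 18 (log2 fold change 1.82, SE 0.30, adjusted p = 0.014, edgeR). It differed from Cubn and Dab2 in its course, since it already stood at 4.90 and 5.68 CPM at day 12, after 1.90 and 1.48 CPM at day 9. Gata4 went from 6.07 and 7.51 CPM to 16.2 and 13.5 CPM (log2 fold change 1.13, adjusted p = 0.027, edgeR). Pdgfra, a receptor that marks early primitive endoderm, just missed the threshold, with 1.79 and 2.19 CPM at day 0 and 5.04 and 5.55 CPM at day 18 (log2 fold change 1.41, adjusted p = 0.051, edgeR). Foxa2, Hnf4a, Sox17 and Sox7 did not pass either. Their log2 fold changes were 2.15, 1.77, 1.58 and 0.89 at levels of at most 5.49 CPM in any library of the 2 days, and Sox7 alone missed an unadjusted p of 0.05.

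Markers of later yolk sac endoderm were nearly absent. Afp had 0 counts in all 10 libraries. Ttr reached at most 0.57 CPM and Apoa1 at most 0.34 CPM, both in day 18 replicate 1, and these 3 genes were not tested. Summed over the 15 tested and 3 untested genes, the list took 354 to 430 CPM at day 0 and 855 to 903 CPM at day 18. The calls for Cubn, Dab2, Lama1, Lamb1 and Col4a2 held in every alternative run. Gata6 and Gata4 lost theirs without day 18 replicate 1, without either day 0 library and in the fit of the 4 libraries alone, where the adjusted p was 0.089 for Gata6 and 0.068 for Gata4 in edgeR. Col4a1 lost its call without day 0 replicate 1 (adjusted p = 0.065, edgeR) and in the fit of the 4 libraries alone (0.068).

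**Figure D3:**
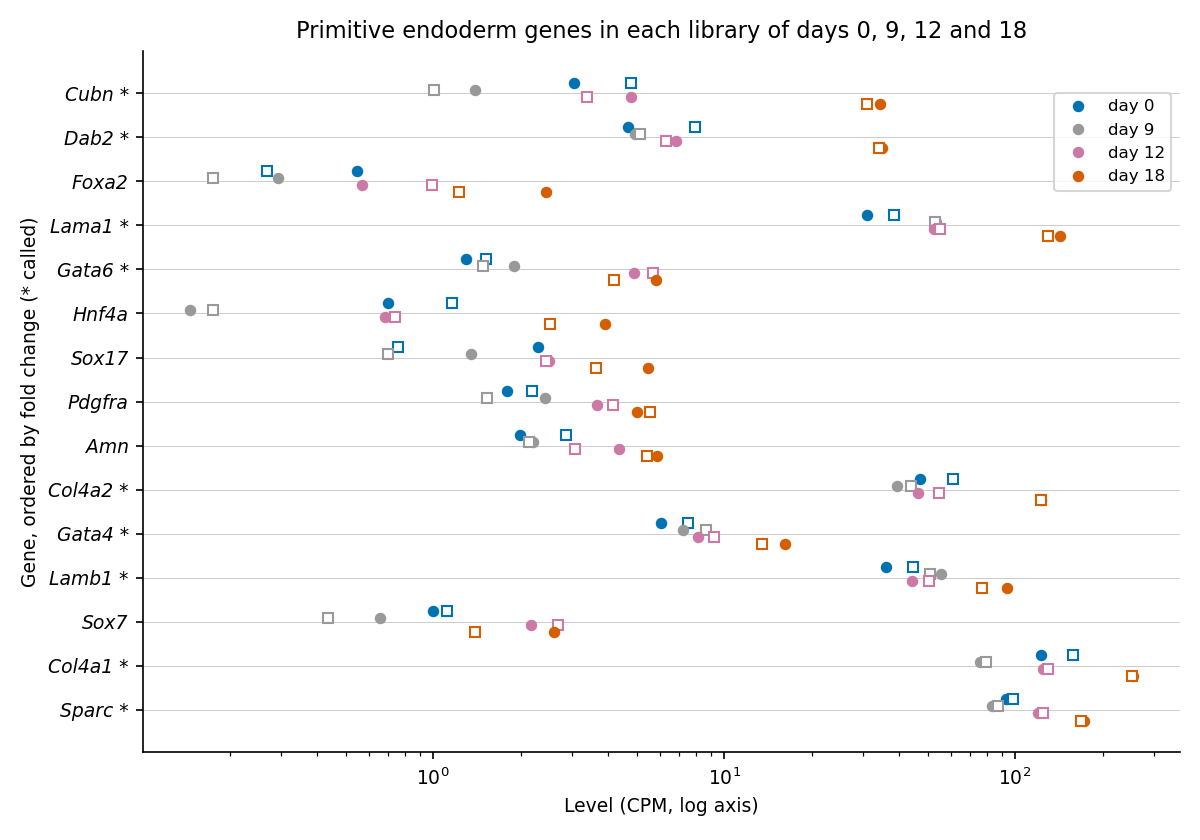
CPM on a log axis (x axis) for the 15 tested primitive endoderm genes (y axis, by fold change, called genes starred), with a circle for replicate 1 and a square for replicate 2 of days 0, 9, 12 and 18. For Cubn and Dab2 the day 18 points stand apart from the other days, whereas for Gata6 the day 12 and day 18 points overlap.

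Among the earlier steps of the course, day 9 against day 0 differed from this pattern, whereas day 12 against day 9 went the same way. Day 9 against day 0 gave 1 higher and 3 lower calls among the 15 genes, with a median log2 fold change of -0.33, where 3.6% of all tested genes were higher and 3.73% lower. Day 12 against day 9, which shares no library with the main comparison, gave 5 higher calls and 0 lower with a median of 0.76, where 1.87% of all genes were higher and 1.97% lower. Cubn, Gata6, Col4a1, Sparc and Sox7 were the 5. In CtbpDKO against WT, 8 of 16 tested list members were higher and 1 was lower, where 14.7% of all genes were higher and 11.4% lower. Among the list members called at day 18, Gata6, Gata4, Col4a1, Col4a2 and Sparc were also higher in CtbpDKO than in WT. Their log2 fold changes there ran from 0.78 for Gata4 to 1.58 for Col4a1. Lamb1 was lower there (log2 fold change -0.47). Cubn, Dab2 and Lama1 had log2 fold changes of -0.15, -0.04 and -0.15 in that contrast and did not pass.

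Genes of the 2-cell state gave 0 calls of 26 tested in edgeR, where 0.514% of all tested genes were called, and 0 in DESeq2. The list had a median log2 fold change of -0.46, with 21 genes below 0 and 5 above, and 4 of the 21 had an unadjusted p under 0.05, a level that 12.2% of all tested genes reached. These were Trim43a, Zscan4b, Tcstv3 and Zscan4e, named after their values were seen. At day 9 against day 0, 18 of the 26 were lower, with a median of -2.32. The summed level of the list was 92.6 to 124 CPM at day 0, 22.6 to 25.0 CPM at day 9, 19.4 to 25.2 CPM at day 12 and 64.5 to 91.0 CPM at day 18. The day 18 libraries were thus above days 9 and 12 and below both day 0 libraries.

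Zscan4c, a 2-cell gene involved in telomere maintenance, shows this course. It had 13.5 and 10.5 CPM at day 0, 2.49 and 2.36 CPM at day 9, 2.28 and 2.47 CPM at day 12 and 9.17 and 9.68 CPM at day 18. The day 18 level was 78.6% of day 0 with a 95% interval of 57.4% to 107% (log2 fold change -0.35, SE 0.21, adjusted p = 0.54, edgeR), an interval that holds a full return and also a level of 57.4% of the start. Zscan4d (log2 fold change -0.61), Pramel7 (-0.24) and Duxf3 (0.29) did not pass either, at levels of 5.05 CPM or less in any library of the 2 days. The Zscan4 genes are near-identical copies, so counts can be split or lost among them.

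The named genes of DNA methylation and core pluripotency had small differences from day 0. Neither list had a call, where 0.514% of all tested genes were called. The largest differences in these lists were 0.54 for Tet2, a demethylation enzyme, and 0.52 for Zic2, on the log2 scale, with adjusted p of 0.056 and 0.14 in edgeR. Dnmt3l, a cofactor of the de novo methyltransferases, had 161 and 163 CPM at day 0, 77.3 and 75.6 CPM at day 9, and 136 and 167 CPM at day 18, or 93.6% of day 0 with a 95% interval of 78.5% to 112%. Dppa2, an activator of 2-cell genes, had 86.6 and 84.5 CPM at day 0, 48.7 and 55.9 CPM at day 9, and 90.8 and 91.2 CPM at day 18, or 106% (91.9% to 123%). The libraries of the 2 days overlapped for Dnmt3l and stood slightly higher at day 18 for Dppa2. Log2 fold changes were -0.03 for Dnmt1, -0.10 for Uhrf1, -0.17 for Dppa4, 0.18 for Nanog, -0.04 for Pou5f1 and -0.06 for Dazl, with adjusted p from 0.49 to 0.96 in edgeR. The embryonic stem cell markers Pou5f1 (684 and 695 CPM), Nanog (267 and 232), Zfp42 (515 and 468) and Esrrb (534 and 430) were all abundant in the day 18 libraries.

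The naive pluripotency list, genes of the state that resembles the early epiblast, had 1 call of 16 tested, where 0.359% of all tested genes were called higher. This was Tbx3, a transcription factor of that state, with 160 and 196 CPM at day 0 and 378 and 312 CPM at day 18 (log2 fold change 0.96, SE 0.13, adjusted p = 0.003, edgeR). Of the 16 genes 13 were above 0 and 11 of these had an unadjusted p under 0.05, with a median of 0.34. Over all tested genes 48.8% were above 0 and 12.2% reached that p in either direction. DESeq2 called 6 of them higher, and edgeR called 0 without day 0 replicate 1. Klf4 was the nearest of the other genes, with 40.5 and 40.4 CPM at day 0 and 59.0 and 54.4 CPM at day 18 and an adjusted p of 0.078 in edgeR.

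**Figure D4:**
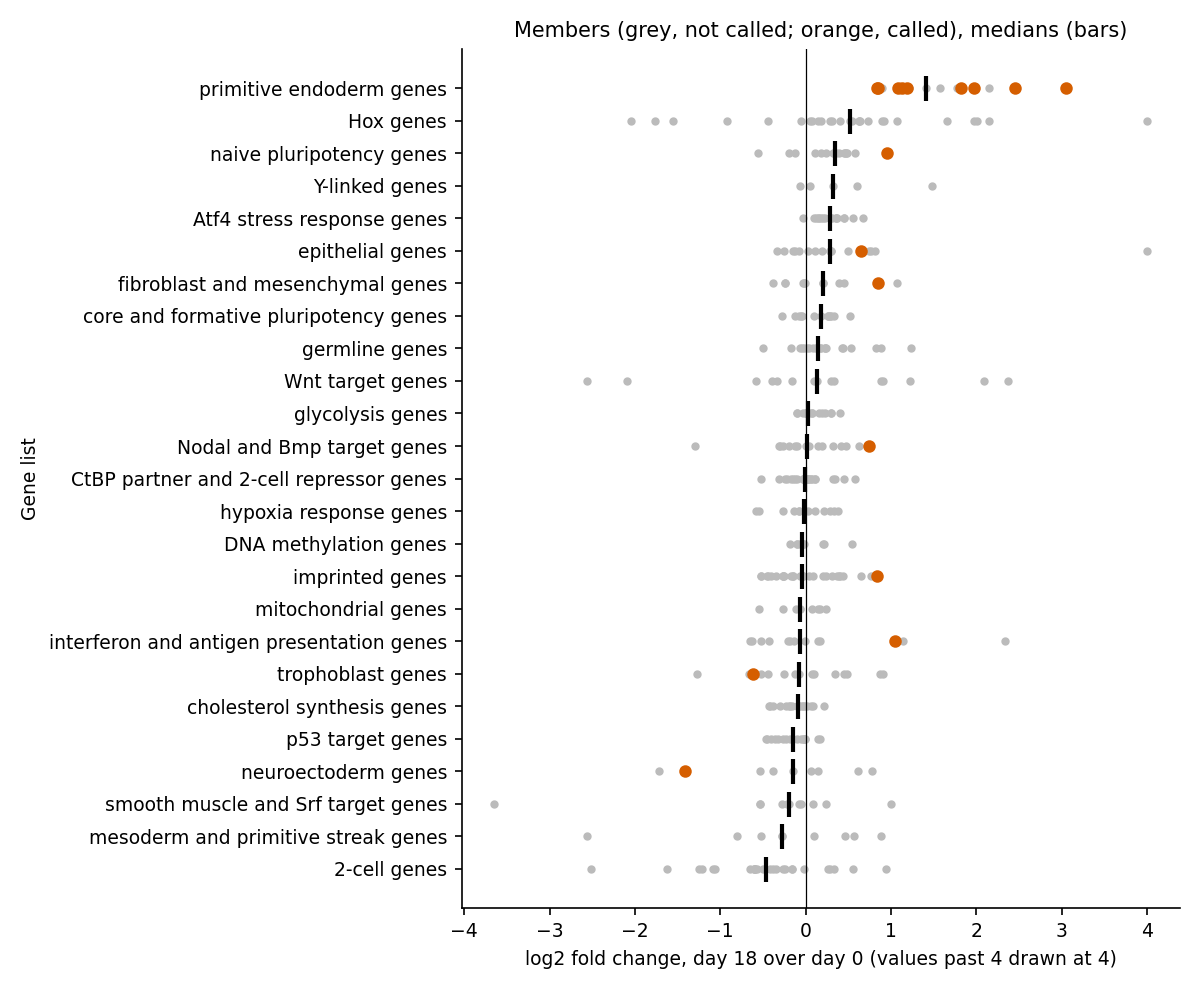
Log2 fold change of day 18 over day 0 (x axis) for every tested member of 25 gene lists (y axis, by median), with called genes in orange and the median as a bar. Of the 17 called genes on these lists 9 are primitive endoderm genes, whose median of 1.41 stands right of all the others.

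Of the 25 lists, 16 had 0 calls and 8 had 1 call each, where 0.514% of all tested genes were called. Beside Tbx3, the single calls were Grb10 among imprinted genes (log2 fold change 0.84), Dsp among epithelial genes (0.65), Fbn1 among fibroblast genes (0.85), H2-D1 among antigen presentation genes (1.04), Lefty2 among Nodal and Bmp targets (0.74), Pax6 among neuroectoderm genes (-1.41) and Tfap2c among trophoblast genes (-0.62). Fibroblast markers, which could come from other cells in the culture, summed to 775 to 922 CPM at day 0 and 910 to 965 CPM at day 18. Trophoblast markers summed to 219 to 242 CPM and 281 to 284 CPM, neuroectoderm markers to 123 to 130 CPM and 131 to 145 CPM, and mesoderm markers to at most 9 CPM in each library of the 2 days. Their part in the result was not tested. Of these 7 calls, those of Dsp, Fbn1, Pax6 and Tfap2c were lost with the replicate block, with adjusted p from 0.050 to 0.071 in edgeR. The fit of the 4 libraries alone lost the same 4 and those of Grb10 and Lefty2. Without day 0 replicate 1, all but Lefty2 were lost, and without day 0 replicate 2, day 18 replicate 1 and day 18 replicate 2 the losses were 6, 5 and 3.

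Other genes with large differences had varied roles. Bc1, a small RNA polymerase III transcript, had 1.74 and 1.61 CPM at day 0 and 12.6 and 14.2 CPM at day 18 (log2 fold change 3.00, SE 0.39, adjusted p = 0.0025, edgeR). It had been similarly high at day 3, at 7.14 and 14.3 CPM, and low at days 9 and 12. Srgn, the core protein of the proteoglycan serglycin, had 1.44 and 1.30 CPM at day 0 and 8.09 and 9.24 CPM at day 18 (log2 fold change 2.66, SE 0.32, adjusted p = 0.0017, edgeR). Like Cubn, it dipped at day 9, to 0.22 and 0.39 CPM, and was high at day 18 only.

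The remaining 6 higher genes chosen for size were Nxf7, an RNA export factor relative, Htra1, a secreted protease, Fbp2, a fructose bisphosphatase, Cyp11a1, the enzyme that starts steroid synthesis, Myo7a, an unconventional myosin, and H2bu2, a histone H2B gene. Their log2 fold changes were 2.86 for Nxf7, 1.70 for Htra1, 1.63 for Fbp2, 1.62 for Cyp11a1, 1.48 for Myo7a and 1.58 for H2bu2. All stayed at or below 10.9 CPM in the libraries of the 2 days, and calls for Nxf7, Htra1, Myo7a and H2bu2 were lost in the fit of the 4 libraries alone (adjusted p from 0.063 to 0.15, edgeR). Each of the 6 lost its call without day 0 replicate 1, Fbp2 only there. Without day 18 replicate 1 all but Fbp2 lost theirs, without day 0 replicate 2 Nxf7, Htra1 and H2bu2 did, and without day 18 replicate 2 Htra1 did.

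Among lower genes, Lars2, the mitochondrial leucyl-tRNA synthetase, fell most of those the rule allowed. It had 601 and 493 CPM at day 0, 288 and 282 CPM at day 3, and 71.1 and 59.5 CPM at day 18 (log2 fold change -3.07, SE 0.33, adjusted p = 0.00057, edgeR). Other features related to ribosomal RNA, a group put together after the values were seen, were also lower at day 18. Gm15564 (log2 fold change -4.14), AY036118 (-2.93), Gm23935 (-2.02), CT010467.1 (-0.99) and Gm42418 (-0.84) were called lower, while Gm26917 was not (log2 fold change -0.39, adjusted p = 0.31, edgeR). The group did not share 1 course, since at day 9 against day 0 the log2 fold change was -3.12 for Lars2, 0.16 for Gm42418 and -0.03 for CT010467.1. RefSeq's table lists Gm42418 as a synonym of Rn18s-rs5, an 18S ribosomal RNA-related sequence. These features with Lars2 and Gm26917 took 4.76% and 4.38% of counts at day 0 and 2.47% and 3.23% at day 18, and the part of ribosomal RNA left in the libraries in the fall of Lars2 was not tested. Left out of the table, they leave 99 calls in place of 106, 97 of them shared, and 9 in the primitive endoderm list as before.

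The other lower genes chosen for size had smaller differences. Itga1, an integrin chain, went from 2.89 and 3.53 CPM to 1.02 and 0.77 CPM (log2 fold change -1.87, adjusted p = 0.020, edgeR), and Pax6, a neural and eye transcription factor, from 3.68 and 4.33 CPM to 1.47 and 1.53 CPM (adjusted p = 0.030, edgeR). Etnk1, an ethanolamine kinase, went from 201 and 179 CPM to 96.3 and 91.4 CPM (log2 fold change -1.02, adjusted p = 0.0059, edgeR). Plk5, Kctd15, Speg, Cilp2, Pimreg, Adam19, Pdzd4 and Ano8 followed, with log2 fold changes from -1.05 for Plk5 to -0.72 for Ano8. Of these 11 genes only Etnk1 was still called in the fit of the 4 libraries alone. Without day 0 replicate 1 or without day 18 replicate 1, none of the 11 was called, and 8 lost their calls without day 0 replicate 2 and 4 without day 18 replicate 2.

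Whether these differences were already present on earlier days was read from the levels, as a description. A gene was placed nearer to day 18 or to day 0 on the scale of log2(CPM + 0.5). Called genes alone were placed, so these counts have no share over all tested genes beside them. Of the 74 higher genes 32 were nearer day 0 at all of days 3, 9 and 12, among them Cubn, Dab2, Lama1, Srgn, Tbx3 and both collagen IV chains. Another 12 were nearer day 18 at day 12 only, Gata6 and Fbp2 among them. On all 3 days, 10 of the 74 were nearer day 18. Among these was H2bu2, with 1.29 and 1.88 CPM at day 0, 8.17 and 8.06 CPM at day 3 and 5.26 and 4.32 CPM at day 18, and Grb10, an imprinted growth inhibitor gene, with 25.0 and 27.4, then 47.1 and 40.7, then 56.1 and 37.8 CPM on the same days. Trim17, H2aw and Gm44313, were also among the 10. In day 0 replicate 1 they had 355, 345 and 270 counts, and RefSeq places H2aw inside Trim17, so the same reads may be counted in both of these. Of the 32 lower genes 15 were nearer day 0 on all 3 days and 2, Sfmbt2 and Gm25911, were nearer day 18 on all 3.

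Other contrasts with no library in common show how the 106 genes behaved elsewhere. Those within the time course share the fit's estimate of each gene's spread, so they are not independent of how the 106 were chosen. In day 12 against day 9, when Ctbp2 fell, 21 of the 74 higher genes (28.4%) were higher and 7 lower, against 1.87% and 1.97% of all genes. In day 9 against day 3, 12 of the 74 were higher and 6 lower, against 0.524% and 0.592%, and of the 32 lower genes 8 (25.0%) were lower and 0 higher. In CtbpDKO against WT, 33 of the 74 (44.6%) were higher and 20 (27.0%) lower, against 14.7% and 11.4%. The genes higher at day 18 thus include ones higher and ones lower in CtbpDKO than in WT.

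Read the other way, the genes that moved when Ctbp2 fell are set beside the 0.359% of all tested genes that were higher and the 0.155% that were lower at day 18 than at day 0. Of 385 genes higher at day 12 than at day 9, 21 (5.45%) were higher and 0 lower at day 18. Their median log2 fold change was 0.16, against -0.01 over all tested genes and 0.87 in their own contrast. Of 406 genes lower at day 12 than at day 9, 7 (1.72%) were higher and 3 (0.739%) lower, with a median of 0.05, against -0.77 in their own contrast. Of 3045 tested genes higher in CtbpDKO than in WT, 33 (1.08%) were higher and 3 (0.0985%) lower at day 18. A missing call with 2 libraries a day does not show that a gene returned to its starting level. Lgals3, a galectin named after its values were seen, was far below its starting level at day 9 and above it at day 18. It had 42.7 and 53.8 CPM at day 0, 4.72 and 4.76 CPM at day 9 and 81.6 and 85.8 CPM at day 18 (log2 fold change 0.79, adjusted p = 0.015, edgeR). Sfmbt2, a Polycomb-related gene named in the same way, was higher in CtbpDKO than in WT by 5.08 on the log2 scale and was lower at day 18 than at day 0, with 107 and 99.2 CPM at day 0, 34.0 and 34.2 CPM at day 9 and 57.7 and 73.3 CPM at day 18 (log2 fold change -0.65, adjusted p = 0.022, edgeR).

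**Figure D5:**
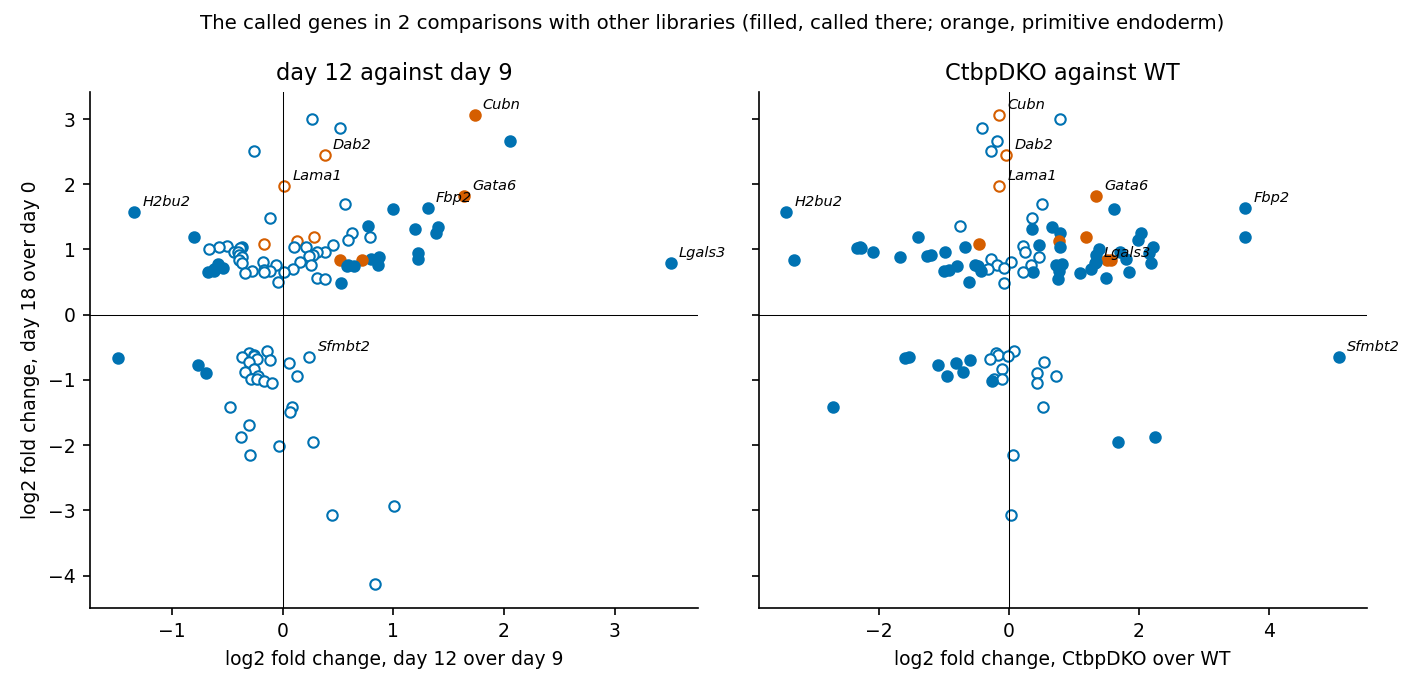
Log2 fold change of day 18 over day 0 (y axis) for the called genes against their log2 fold change in day 12 over day 9 (left x axis) and in CtbpDKO over WT (right x axis), 1 point per gene with a value in that table. Filled points were called in the contrast on the x axis, and orange points are primitive endoderm genes. Points above 0 on the y axis lie on both sides of 0 on the x axis in each panel.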

How the data were processed

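RNA was measured by sequencing, and each library's counts are raw counts per gene deposited by the authors, with no normalization. Per the submitters' processing notes, the tools include Trim Galore, HISAT2 and featureCounts with the build mm10. Versions, annotation, settings and strand use are not given in the sources used here. Per the labels' protocols, RNA came from a PureLink kit and libraries from a Collibri stranded kit.

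Libraries were grouped by their labels. From the 55276 genes of the time course table filterByExpr kept 20612, and edgeR 4.0.16 in R 4.3.3 fitted all 10 libraries with day as the only term, TMM factors and the quasi-likelihood test. The genotype table, with 21193 genes kept, was fitted over its 12 libraries. P-values were adjusted by Benjamini-Hochberg over all tested genes, and a gene is called under 0.05. CPM uses the scaled library size. Fitted fold changes use a prior count of 0.125. Intervals are 95% intervals of the fit, which cover the spread between libraries as the fit estimates it. DESeq2 1.42.0, other scalings, filters, samples and each library left out were alternatives.

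The comparison, the gene lists and the naming rule were chosen with earlier results of these data known. The rule names 14 genes of the study's subject, up to 12 called genes per direction with the largest change, non-overlapping libraries, a mean of at least 50 counts in the higher day and no predicted or structural RNA symbol, and up to 4 called genes per list. Other members of the primitive endoderm list are named to account for it. 1 gene was left out of that list and is not reported here. The leaving out of ribosomal-RNA-like features was chosen after seeing the data. RefSeq's table of GRCm38.p6 matched 17879 tested genes by symbol. Replicate numbers showed no pairing of the libraries, since deviations of same-numbered libraries correlated between -0.08 and 0.09. Correlations over all tested genes cannot exclude a pairing, and the labels do not say. The scripts were tested on simulated data.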

Additional observations from a re-analysis of the deposited data

How the results depend on the processing

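Calls depended on the samples in the fit. In every called gene the libraries of the 2 days did not overlap, so directions were all but fixed in advance, also with a library left out. Over 40 called genes followed singly, 0 of 396 values under the other settings and 0 of 160 with a library left out turned sign. Of the 396 values, 46 lost the call. With a library left out, a larger share of the values lost it. Throughout, 10 genes kept it. The cause was not tested.

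For day 18 against day 0, 106 calls became 268 with DESeq2, 566 with no filter on low counts (58.7% of them higher, against 69.8%), 40 with only the groups compared and 46 at a log2 fold change of at least 1, and 27 to 233 with a library left out. The 9 primitive endoderm calls became 13 with no filter and 6 to 9 with a library left out, and the list's median ran from 1.26 to 1.61 with a library left out. The 2-cell calls became 2, both lower, with no filter and 0 to 1 with a library left out. The single naive pluripotency call became 6 with DESeq2, 5 with no filter, 0 at a log2 fold change of at least 1 and 0 to 1 with a library left out.

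In day 9 against day 0, 1512 calls became 625 at a log2 fold change of at least 1 and 652 to 969 with a library left out. In day 12 against day 9, 791 became 1361 with no filter, 273 at that fold and 210 to 303 with a library left out. In day 9 against day 3, 230 became 436 with DESeq2, 789 with no filter, 96 at that fold and 51 to 101 with a library left out. In CtbpDKO against WT, 5522 became 2221 at that fold and 3543 to 4048 with a library left out.

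With the replicate block, day 18 against day 0 gave 87 calls, 85 of them shared. The numbers showed no pairing of the libraries but cannot exclude one, and 7 of the named calls were lost. Genes that were not called changed sign with a library left out. Duxf3 ran from -0.47 (without day 18 replicate 1) to 0.85 on the log2 scale, Pramel7 from -0.69 to 0.17 (above 0 without day 18 replicate 1, at 0.08, or day 0 replicate 1), Dnmt3l from -0.23 to 0.044 (without day 18 replicate 1) and Dnmt1 from -0.16 to 0.10 (without day 0 replicate 2). Uhrf1 ran from -0.24 to 0.048 (above 0 without day 18 replicate 1 or, at 0.013, day 0 replicate 2) and Dazl from -0.46 to 0.48 (above 0 without day 0 replicate 1 or, at 0.14, day 18 replicate 2). Low counts limit the 2-cell genes.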

Other observations

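A pair of pseudogenes outside the naming rule, noticed after their values were seen, differed between the days at high levels. Gm8624 had 110 and 105 CPM at day 0, 106 and 94.3 CPM at day 12, and 452 and 775 CPM at day 18 (log2 fold change 2.51, adjusted p = 0.00055, edgeR). Gm6129 had 117 and 92.3 CPM at day 0, 132 and 87.8 CPM at day 12, and 18.8 and 28.1 CPM at day 18 (log2 fold change -2.15, adjusted p = 0.00057, edgeR). Counts of pseudogenes can be shared with their parent genes, and their part in these values was not tested.

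Mitochondrial and stress genes gave 0 calls, which for lists of this size is near the share of 0.514% over all tested genes. The 9 mitochondrial genes had a median log2 fold change of -0.06. Of 18 Atf4 stress response genes 17 were above 0 at day 18, with a median of 0.29 and 4 at an unadjusted p under 0.05. Over all tested genes 48.8% were above 0, and 12.2% reached that p in either direction. Of 17 p53 targets 15 were below 0, with a median of -0.15. Of 27 Hox genes tested 21 were above 0, with a median of 0.51, at a summed level of 33.6 to 34.2 CPM at day 0 and 40.7 to 53.4 CPM at day 18.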
